A study of Homo sapiens with 12 samples.

Results

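The genes of mitochondrial oxidative phosphorylation were followed as 1 module in RNA sequencing of G401, an established human cell line from a malignant rhabdoid tumour with the genotype SMARCB1(-/-). The module was defined by gene name and its rule used no measured value, although it was chosen with earlier results of these data known. It took the protein-coding subunit genes of complex I (NDUFA, NDUFB, NDUFC, NDUFS and NDUFV with a number), complex II (SDHA to SDHD), complex III (CYC1 and the UQCR genes), complex IV (COX4 to COX8) and complex V (the ATP5 subunits), together with the 13 protein genes of the mitochondrial genome. This gave 100 members among the 57820 gene identifiers of the deposited tables, 87 of them nuclear and 13 mitochondrial. Genes listed below as assembly factors, pseudogenes, read-through transcripts and the ATP synthase inhibitor were not counted as subunits. COX7A2L was counted in complex IV by its name. Doxycycline induced either GFP, the control protein, or SMARCB1, which belongs to the SWI/SNF (BAF) complexes that remodel chromatin. Each state received DMSO, the solvent, or dBRD9-A, which degrades BRD9, found in the non-canonical form of BAF, for 24 hours. All 12 libraries, 3 in each of the 4 groups, thus come from a SMARCB1-deficient background with a doxycycline-induced protein. A single cell line was used, and the labels do not say that replicates were separate cultures, so the tests measure the spread between these libraries, which may be technical.

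Oxidative phosphorylation couples the oxidation of NADH and succinate to ATP synthesis in the inner mitochondrial membrane. Complexes I and II pass electrons to ubiquinone, complex III passes them on to cytochrome c, complex IV reduces oxygen, and complex V makes ATP with the proton gradient that complexes I, III and IV build. Most subunits are encoded in the nucleus and imported, while a few core subunits of complexes I, III, IV and V are encoded by mitochondrial DNA, transcribed as long precursor RNAs inside the organelle and translated on mitochondrial ribosomes, so each of these complexes draws on both genomes. NRF1, GABPA (the DNA-binding part of NRF2) and YY1 are transcription factors known to bind promoters of nuclear respiratory genes.

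Letters known as the binding sequences of these factors were looked for in RefSeq promoters (GRCh38.p14, 250 bases before to 50 after each start, both strands), which could be matched for 70 of the 87 nuclear members (80.46%). The NRF1 letters, GCGCA followed directly by its reverse complement TGCGC, were found in 4 members (5.714%) and in 2.402% of the 10740 matched promoters of genes tested. The GABPA letters CCGGAAGT were found in 10 members (14.29%) against 8.883% of promoters of genes tested, and the YY1 letters AAGATGGC in 11 members (15.71%) against 5.372%. At least 1 of the 3 was present in 24 members (34.29%), 15.54% of promoters of genes tested and 8.303% of all 27305 promoters. None of these letter strings lies inside another. A match describes letters and not a bound site. Windows of 30 bases are shown for the NRF1 matches, for the YY1 matches of the 3 members that were higher with SMARCB1, and for GABPA matches of 3 members that were lower, with the matched letters or their reverse complement in capitals.
ATP5F1C, NRF1 letters, chr10:7788145-7788174, plus strand: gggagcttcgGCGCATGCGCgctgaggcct
NDUFA8, NRF1 letters, chr9:122159764-122159793, minus strand: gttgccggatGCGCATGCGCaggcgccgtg
NDUFB4, NRF1 letters, chr3:120596167-120596196, plus strand: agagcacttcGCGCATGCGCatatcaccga
SDHD, NRF1 letters, chr11:112086753-112086782, plus strand: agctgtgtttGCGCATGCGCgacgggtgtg
UQCRC1, YY1 letters, chr3:48609605-48609634, minus strand: actgcagctggAAGATGGCggcgtccgtgg
NDUFS4, YY1 letters, chr5:53560649-53560678, plus strand: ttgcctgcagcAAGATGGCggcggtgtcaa
NDUFS7, YY1 letters, chr19:1383913-1383942, plus strand: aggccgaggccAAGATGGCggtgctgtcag
UQCRH, GABPA letters, chr1:46303640-46303669, plus strand: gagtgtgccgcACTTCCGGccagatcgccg
NDUFS1, GABPA letters, chr2:206159584-206159613, minus strand: aggctggggccACTTCCGGcggaactgcgg
ATP5PD, GABPA letters, chr17:75047053-75047082, minus strand: cccgggaagatACTTCCGGaaccagccctc
The YY1 letters in UQCRC1, NDUFS4 and NDUFS7 begin 24, 22 and 18 bases from the RefSeq start, on its downstream side. Of the 11 members with the YY1 letters, 3 were higher with SMARCB1 in DMSO, 2 were lower (NDUFA6 and NDUFA7) and 6 passed the test in neither direction, and of the 70 matched promoters 7 belonged to higher and 27 to lower members. Of the 4 members with the NRF1 letters 3 were lower and 0 higher, and of the 10 with the GABPA letters 4 were lower and 0 higher, where 31.6% of all genes tested were lower and 33.5% higher. Of the NRF1 members NDUFA8 lost its call in 5 and SDHD, which has both sets of letters, in 4 of 12 fits that left out a library. These directions are relative to the bulk of genes, and with the spike-in scaling described next 0 members with any of the letters were lower, while 1 with the NRF1, 5 with the GABPA and 6 with the YY1 letters were higher.

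The libraries held 34.97 to 58.54 megacounts assigned to genes. Counts of SMARCB1 were 0 to 2 in the 6 GFP libraries and 53033 to 110893 in the 6 SMARCB1 libraries. Levels are CPM (counts divided by library size in megacounts, the size being scaled by TMM, a trimmed mean of log ratios), and TMM centres fold changes on the bulk of genes. Synthetic ERCC spike-in RNAs made up 0.9634% to 1.302% of counts, and scaling to them instead put the all-gene median of log2 fold changes at 0.17 for SMARCB1 in DMSO, 0.36 for dBRD9-A in GFP cells, -0.14 for dBRD9-A in SMARCB1 cells and -0.32 for SMARCB1 with dBRD9-A. These medians lie further from 0 than the median absolute change of the members, so "higher" and "lower" below mean relative to the bulk of genes, and spike-in values are given beside the groups. How the spike-ins were added is not given in the sources used here. SMARCB1 libraries also differed in muscle markers, whose summed level over 14 genes was 1.60 to 2.08 CPM in GFP cells and 55.8 to 62.8 CPM in SMARCB1 cells in DMSO, most of it from MYH8 and MYH2, with MYH7, MYOD1, MYOG, MYF5 and TNNI2 at 3 counts or fewer throughout. Of the 7 markers that passed the filter 4 (MYH8, MYH2, MYH1 and DES) were higher with SMARCB1 in DMSO and 3 (CKM, TTN and MYH3), each at 38 counts or fewer in every library, were lower. The part of these markers in the results below was not tested. Replicate 2 of SMARCB1 cells with dBRD9-A stood apart from its 2 replicates. Chi-square divided by degrees of freedom, over genes, was 10.96 and 25.98 against them and 3.03 to 8.02 in the other 10 replicate pairs. Values without that library are given for some of the results below. Summed proliferation markers were 2157 to 2186 CPM in GFP cells and 2311 to 2328 CPM in SMARCB1 cells in DMSO. With dBRD9-A the sums were 2169 to 2225 CPM and 2227 to 2273 CPM. Of the 6 proliferation markers 3 were higher and 1 lower with SMARCB1 in DMSO (66.7% called, against 65% of all genes tested). With spike-in scaling 5 were higher and 0 lower. Cells with less of an RNA and fewer cells with it cannot be told apart in bulk libraries.

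As a share of gene counts the nuclear members moved little between the groups. The nuclear members together held 1.18, 1.15 and 1.17% of gene counts in the 3 libraries of GFP cells in DMSO and 1.14, 1.10 and 1.10% in those of SMARCB1 cells in DMSO. With dBRD9-A they held 1.15, 1.17 and 1.15% in GFP cells and 1.13, 1.12 and 1.10% in SMARCB1 cells. All 6 SMARCB1 libraries were thus below all 6 GFP libraries, with group means of 1.16% and 1.11% in DMSO and 1.15% and 1.12% with dBRD9-A, although the nearest libraries (1.145% and 1.14%) differed by little. In CPM the nuclear sums of the cell states overlapped in DMSO, with 11440 in SMARCB1 replicate 1 and 11310 in GFP replicate 2. They also overlapped with dBRD9-A, with 11410 in SMARCB1 replicate 1 and 11290 in GFP replicate 1. The log2 ratio of group means of the nuclear sum in CPM was -0.06 for SMARCB1 in DMSO and 0.11 per spike-in count, so this order depends on the scaling. Per spike-in count it was 0.33 for dBRD9-A in GFP cells, -0.12 for dBRD9-A in SMARCB1 cells and -0.35 for SMARCB1 with dBRD9-A.

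The 13 mitochondrial genes held 0.111, 0.0949 and 0.0834% of counts in GFP cells in DMSO and 0.102, 0.0944 and 0.110% in SMARCB1 cells in DMSO. With dBRD9-A they held 0.0951, 0.0857 and 0.0911% and 0.108, 0.0949 and 0.100%. As a percentage of the nuclear sum, which does not depend on library scaling, the mitochondrial sum was 8.29 ± 1.16 in GFP cells in DMSO, 9.16 ± 0.724 in SMARCB1 cells in DMSO, 7.86 ± 0.483 in GFP cells with dBRD9-A and 9.06 ± 0.573 in SMARCB1 cells with dBRD9-A (SD, n = 3). In DMSO the libraries of the cell states overlapped, with both the lowest (7.13%) and the third highest (9.45%) of all 12 values in GFP cells. With dBRD9-A each SMARCB1 library (8.46% to 9.60%) was above each GFP library (7.34% to 8.29%). No p is given for these sums. How mitochondrial DNA was treated in the authors' alignment and annotation is not given in the sources used here, so the shares and percentages describe the deposited tables and need not be those of the cells.

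**Figure D1:**
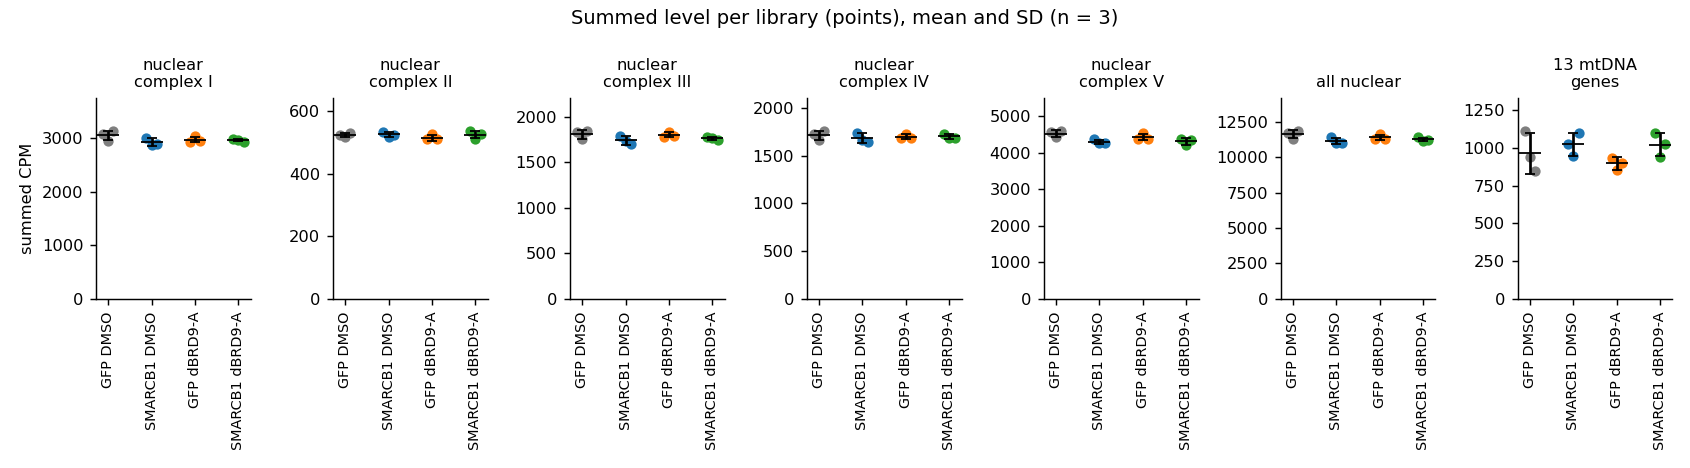
Summed CPM of the nuclear members by complex, of all nuclear members and of the 13 mitochondrial genes, with a point for each library and the mean with its SD (n = 3) for each of the 4 groups. The nuclear sums lie close together in the 4 groups, and the mitochondrial sum spreads most in GFP cells in DMSO (844 to 1109 CPM).

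SMARCB1 expression in DMSO moved many nuclear members by small amounts and in both directions. Of 93 members tested, 44 (47.3%) passed an adjusted p of 0.05 in edgeR's quasi-likelihood test with Benjamini-Hochberg adjustment over 15750 genes, against 65% of all genes tested. Relative to the bulk of genes 11 were higher (background 33.5% of genes) and 33 lower (background 31.6%), and under spike-in scaling 42 were higher and 3 lower. The nuclear set had 41 of 80 called, 10 higher and 31 lower, and the mitochondrial set 3 of 13, 1 higher and 2 lower. Ignoring sign, the median size of the log2 change was 0.09 over the nuclear members tested, 0.18 over the mitochondrial ones and 0.28 over all genes tested. A change of 1 or more on the log2 scale, in either direction, was seen for 1 member, COX6B2, and for 14.9% of all genes tested. These medians leave out the 7 members that did not pass the filter on low counts. Leaving out each library in turn gave 39 to 48 calls.

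**Figure D2:**
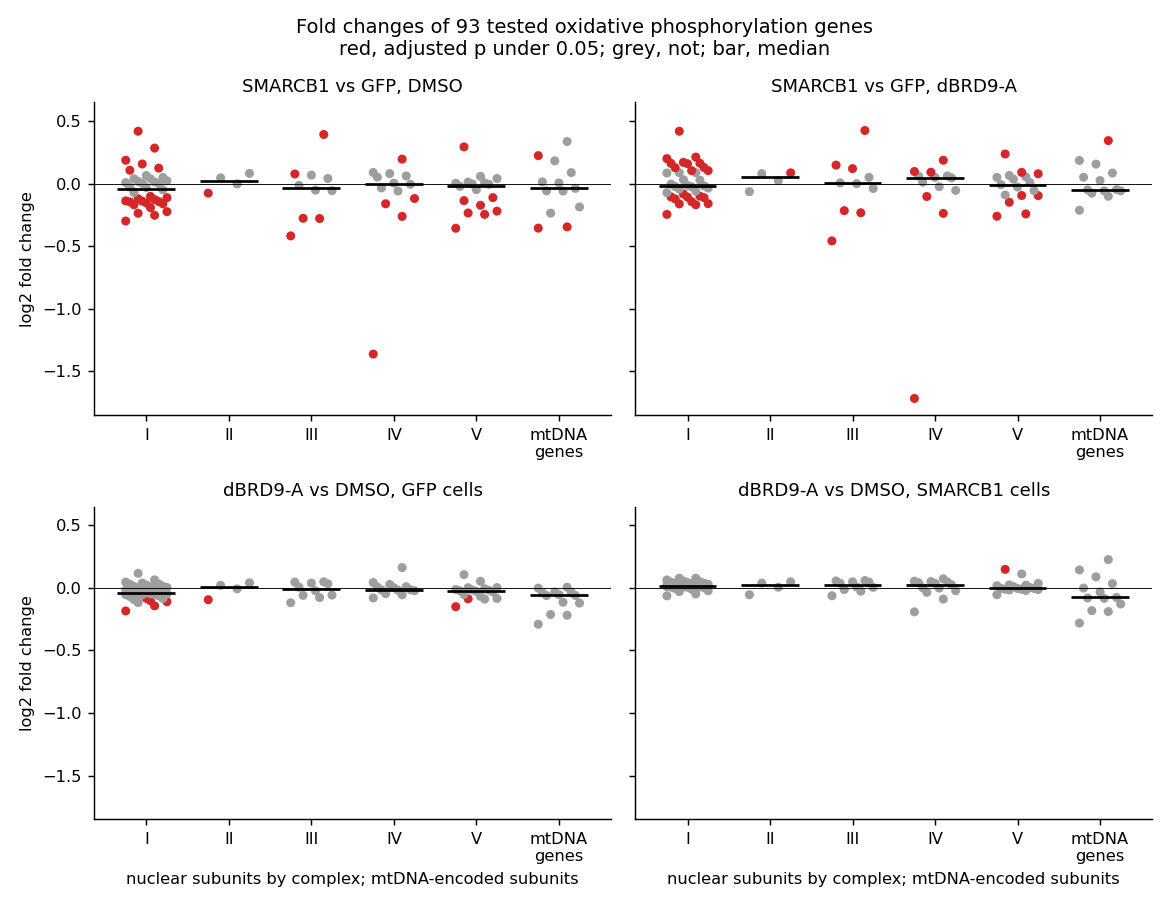
Log2 fold changes of the 93 members tested, nuclear members by complex and the mitochondrial genes in a column of their own, in 4 comparisons; red points passed an adjusted p of 0.05 and bars are medians. SMARCB1 moved members in both directions in DMSO and with dBRD9-A with COX6B2 the lowest point, while dBRD9-A gave 8 lower members in GFP cells and 1 higher member in SMARCB1 cells; under spike-in scaling most of these directions shift with all genes.

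Complex III held 2 core subunits that moved in opposite directions. UQCRC1 and UQCRC2 encode the core proteins 1 and 2, which sit side by side on the matrix face of the complex. UQCRC1 (ENSG00000010256.6) measured 188, 179 and 195 CPM in GFP cells and 254, 243 and 242 CPM in SMARCB1 cells in DMSO, and the groups did not overlap. Its log2 fold change was 0.39 (adjusted p 2.2e-08, SE 0.04), and 0.56 (adjusted p 6.3e-10) under spike-in scaling. UQCRC2 (ENSG00000140740.6) went the other way, from 366, 351 and 375 CPM to 276, 269.7 and 272 CPM, again with no overlap. Its log2 fold change was -0.42 (adjusted p 2.02e-09, SE 0.03), and -0.25 (adjusted p 0.00159) under spike-in scaling. The ratio of UQCRC1 to UQCRC2 counts within a library needs no scaling. It was 0.513, 0.509 and 0.520 in GFP cells and 0.920, 0.900 and 0.889 in SMARCB1 cells in DMSO, and 0.510, 0.518 and 0.470 and 0.898, 0.978 and 0.888 with dBRD9-A. Every SMARCB1 library was thus above every GFP library, with a log2 ratio of group means of 0.81 in DMSO and 0.88 with dBRD9-A. The ratio was formed after both genes' values were seen and is a description, and since the transcripts differ in length only its change can be read.

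The other subunits of complex III moved less. UQCRH, the hinge protein at the cytochrome c docking site, measured 307, 292 and 310.5 CPM in GFP cells and 259, 252 and 239 CPM in SMARCB1 cells in DMSO, a log2 fold change of -0.28 (adjusted p 1.28e-06, SE 0.03). Its near-identical copy UQCRHL, whose counts were 5.38% to 6.24% of those of UQCRH over the 12 libraries, had a log2 fold change of -0.28 (adjusted p 0.000227), and reads may be shared between the copies. UQCRFS1, the Rieske iron-sulphur protein, had a log2 fold change of 0.08 (adjusted p 0.0436, SE 0.03) with overlapping groups, and lost its call in 6 of 12 fits that left out a library. CYC1, the cytochrome c1 subunit, measured 204, 211 and 208 CPM and 215, 214 and 212 CPM, with a log2 fold change of 0.04 (adjusted p 0.204, SE 0.03) and a 95% interval of -0.01 to 0.09. Relative to the bulk of genes 5 of the 10 members were called (50%, against 65% of all genes tested), 2 higher and 3 lower. With spike-in scaling 5 were higher and 1, UQCRC2, lower.

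**Figure D3:**
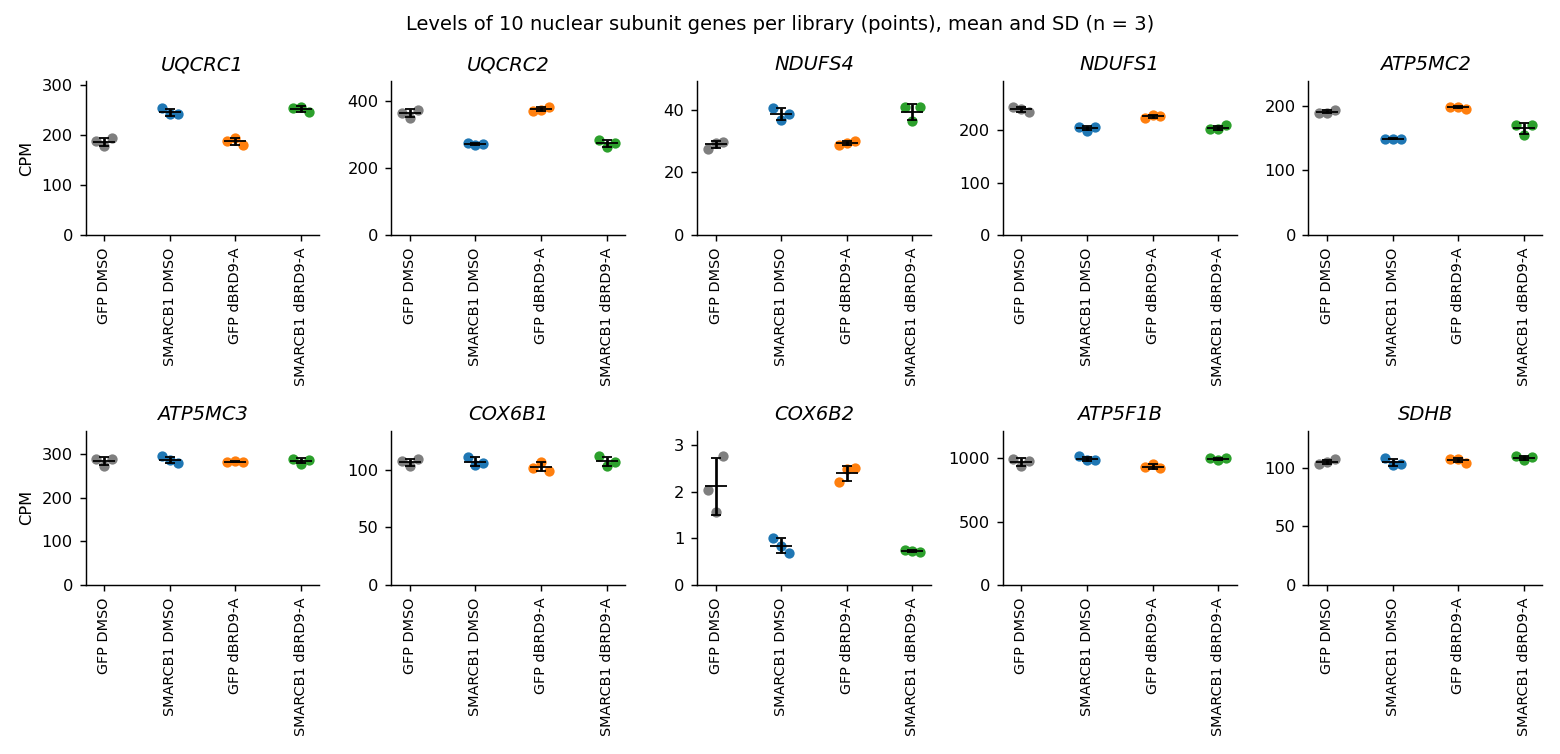
CPM of 10 nuclear members per library (points), with the mean and SD (n = 3), in the 4 groups. UQCRC1 and NDUFS4 were higher and UQCRC2, NDUFS1, ATP5MC2 and COX6B2 lower in each SMARCB1 library than in each GFP library of the same treatment, relative to the bulk of genes, while COX6B1, ATP5MC3 and SDHB overlapped between the groups; under spike-in scaling the log2 fold change of NDUFS1 in DMSO was -0.07 and did not pass the threshold.

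Complex I, the largest complex, had 22 of 36 nuclear members called with SMARCB1 in DMSO (61.1%, against 65% of all genes tested). Of these 6 were higher (background 33.5%) and 16 lower (background 31.6%), and with spike-in scaling 16 were higher and 0 lower. NDUFS4 (ENSG00000164258.7), an accessory subunit needed for the NADH-oxidising module, rose most, from 27.5, 29.5 and 29.8 CPM to 40.6, 36.9 and 38.6 CPM. The groups did not overlap, the log2 fold change was 0.42 (adjusted p 1.05e-06, SE 0.05), and it was 0.59 (adjusted p 2.17e-08) with spike-in scaling. NDUFB7, an accessory subunit of the membrane arm, measured 46.1, 45.8 and 48.7 CPM and 61.0, 55.5 and 55.0 CPM, a log2 fold change of 0.28 (adjusted p 2.86e-05, SE 0.05). NDUFS1, the large iron-sulphur subunit of the same peripheral arm as NDUFS4, was 245, 239.8 and 236 CPM in GFP cells and 206, 199 and 206 CPM in SMARCB1 cells, with no overlap and a log2 fold change of -0.24 (adjusted p 4.05e-07, SE 0.03). NDUFV1, which carries the NADH and flavin site, had a log2 fold change of -0.14 (adjusted p 0.00154, SE 0.03) and of 0.03 with spike-in scaling. NDUFB1, another accessory subunit of the membrane arm, measured 56.6, 49.5 and 54.5 CPM and 46.3, 43.1 and 41.7 CPM and NDUFB10, also of that arm, had a log2 fold change of -0.25 (adjusted p 2.84e-05, SE 0.04). NDUFB1 had the lowest fold change of the nuclear members of the complex, -0.30 (adjusted p 2.28e-05, SE 0.05). Among other core subunits NDUFS3 was lower, NDUFS7 and NDUFV2 were higher, and NDUFS8 was not called (adjusted p 0.45). The calls of NDUFS7 and NDUFS3 were lost in some fits that left out a library, with adjusted p up to 0.0984 and 0.0627.

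Complex II, whose subunits are all nuclear, had 1 of 4 members called with SMARCB1 in DMSO (25%, against 65% of all genes tested). With spike-in scaling 3 were higher and 0 lower, with a median log2 fold change of 0.19 where the bulk of genes was at 0.17. SDHA, the flavoprotein, measured 192, 182 and 189 CPM in GFP cells and 194, 191 and 196 CPM in SMARCB1 cells in DMSO. SDHB, the iron-sulphur subunit, measured 103, 105 and 107 CPM and 108, 103 and 104 CPM, with a log2 fold change of 0.00 (adjusted p 0.957, SE 0.03) and a 95% interval of -0.06 to 0.05. The groups overlapped for both genes. SDHD, a membrane anchor, was the 1 member called relative to the bulk of genes. Its log2 fold change was -0.08 (adjusted p 0.0346, SE 0.03), and 0.09 (adjusted p 0.232) with spike-in scaling. It lost the call without GFP replicate 2 or 3 or SMARCB1 replicate 2 or 3, with adjusted p of 0.0564 to 0.139.

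In complex IV 5 of 13 nuclear members tested were called with SMARCB1 in DMSO (38.5%, against 65% of all genes tested). Of these 1 was higher and 4 lower, and with spike-in scaling 7 were higher and 1 lower. COX6B2 (ENSG00000160471.8) encodes an isoform of subunit VIb known mainly from testis and was the member with the largest change. It measured 2.03, 1.56 and 2.77 CPM in GFP cells and 1.02, 0.832 and 0.679 CPM in SMARCB1 cells in DMSO, from 64.4 to 160.0 and 33.0 to 39.5 estimated counts, and the groups did not overlap. Its log2 fold change was -1.36 (adjusted p 1.25e-05, SE 0.20), and -1.18 (adjusted p 2.69e-06) with spike-in scaling. The usual isoform COX6B1 measured 108, 104 and 109.6 CPM and 112, 104 and 107 CPM and had a log2 fold change of 0.00 (adjusted p 0.927, SE 0.04) with a 95% interval of -0.07 to 0.07. COX6B2 thus made up 1.93 ± 0.495% of the counts of the pair in GFP cells and 0.775 ± 0.135% in SMARCB1 cells in DMSO (SD, n = 3). COX6C, a small subunit of the inner membrane, was the 1 higher member, from 113, 114 and 111 CPM to 135, 128 and 125 CPM with a log2 fold change of 0.20 (adjusted p 7.91e-05, SE 0.04). COX7C, another small membrane subunit, was lower, from 190.1, 195 and 197 CPM to 166, 164 and 156 CPM with a log2 fold change of -0.26 (adjusted p 6.42e-07, SE 0.03) and of -0.09 (adjusted p 0.226) with spike-in scaling. NDUFA4, a complex IV subunit despite its name, had a log2 fold change of -0.16 (adjusted p 0.000445, SE 0.03) and COX7A2, the common form of subunit VIIa, one of -0.12 (adjusted p 0.00449, SE 0.03). With spike-in scaling these were 0.01 and 0.05.

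The other tissue or hypoxia isoforms of complex IV were at or near 0 in every group. COX6A2 and COX7A1, the heart and muscle isoforms of subunits VIa and VIIa, had 0 counts in all libraries but 1, which had 1 count of COX7A1, so no muscle form of complex IV was detectable at this depth in the cells in which MYH8 and MYH2 were higher. COX7B2 had 0 counts throughout, COX4I2 (the hypoxia isoform of subunit IV) 0 to 1 and COX8C 0 to 2. A count of 0 allows up to 3 counts per library, for counting error only. NDUFA4L2, a hypoxia-induced relative of NDUFA4, had 5 to 14 counts in GFP libraries and 0 to 6 in SMARCB1 libraries and did not pass the filter. Their usual partners were present at ordinary levels. COX4I1 averaged 211 ± 13.7 CPM in GFP cells and 220.3 ± 5.15 CPM in SMARCB1 cells in DMSO, COX6A1 125 ± 3.16 and 132 ± 2.07 CPM, COX7B 77 ± 4.53 and 74.1 ± 2.01 CPM, and COX8A 189 ± 6.70 and 196 ± 8.55 CPM (SD, n = 3). None of these 4 passed the threshold in this comparison (adjusted p 0.0511 to 0.253).

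In complex V 8 of 17 members tested were called with SMARCB1 in DMSO (47.1%, against 65% of all genes tested). Of these 1 was higher and 7 lower, and with spike-in scaling 8 were higher and 1 lower. The 3 genes ATP5MC1, ATP5MC2 and ATP5MC3 encode the same mature c subunit of the membrane ring with different import sequences, so their proportions can be compared within a library. ATP5MC2 (ENSG00000135390.13), which overlaps AC073594.1 in GENCODE 29, measured 189.7, 189 and 193 CPM in GFP cells and 148, 149 and 149 CPM in SMARCB1 cells in DMSO, with no overlap, a log2 fold change of -0.36 (adjusted p 1.74e-08, SE 0.03) and -0.19 (adjusted p 0.0137) with spike-in scaling. ATP5MC1 measured 66.8, 66.8 and 70.2 CPM and 58.7, 57.7 and 55.8 CPM, a log2 fold change of -0.25 (adjusted p 1.77e-05, SE 0.04), or -0.08 (adjusted p 0.326) with spike-in scaling. ATP5MC3 measured 291, 274 and 289.9 CPM and 296, 286 and 280.3 CPM, with a log2 fold change of 0.01 (adjusted p 0.732, SE 0.03) and a 95% interval of -0.04 to 0.07. The share of ATP5MC2 in the counts of the 3 genes was 35.1 ± 0.525% in GFP cells and 30.2 ± 0.624% in SMARCB1 cells in DMSO, and the share of ATP5MC3 was 52.4 ± 0.702% and 58.2 ± 0.551% (SD, n = 3). With dBRD9-A the share of ATP5MC2 was 35.6 ± 0.297% and 32.2 ± 0.775%. In each treatment every SMARCB1 library had a lower share of ATP5MC2 than every GFP library.

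The catalytic head of complex V is made of alternating alpha and beta subunits. The alpha subunit gene ATP5F1A measured 1259, 1237 and 1253 CPM in GFP cells and 1119, 1091 and 1115 CPM in SMARCB1 cells in DMSO, with a log2 fold change of -0.17 (adjusted p 6.06e-05, SE 0.03) and of -0.004 (adjusted p 0.96) on the spike-in scale, where the bulk of genes was at 0.17. The beta subunit gene ATP5F1B measured 997, 939 and 976 CPM and 1016, 990.2 and 989 CPM with overlapping groups, a log2 fold change of 0.04 (adjusted p 0.19, SE 0.03) and a 95% interval of -0.01 to 0.09. ATP5F1D, the delta subunit of the central stalk, was the 1 higher member, from 31.9, 30.8 and 33.0 CPM to 41.9, 37.6 and 38.1 CPM with a log2 fold change of 0.29 (adjusted p 0.00184, SE 0.07). ATP5MGL, a little-expressed copy of ATP5MG, had 2 to 8 counts and did not pass the filter.

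The mitochondrial genes spanned a wide range of levels in the deposited tables, and the part of read alignment to mitochondrial DNA in this order was not tested. Per kilobase of gene in GFP cells in DMSO, MT-CO3 was highest at 575 ± 69.5 CPM, followed by MT-CO1 at 216 ± 35.4, MT-CO2 at 131 ± 17.7 and MT-ND3 at 99.6 ± 15.6 (SD, n = 3). These are subunits of complex IV except MT-ND3, which belongs to complex I. The next, MT-ND4L, was at 17.7 ± 2.42 CPM per kilobase, and MT-ATP6, MT-ND1, MT-CYB, MT-ND4, MT-ATP8 and MT-ND2 followed in this order between 12.1 and 4.002. MT-ND5 (2.36 ± 0.590) and MT-ND6 (1.44 ± 0.413) were lowest. Of neighbours in this order, the libraries of MT-CO2 and MT-ND3, of MT-ATP6 through MT-ND4, of MT-ATP8 and MT-ND2, and of MT-ND5 and MT-ND6 overlapped. MT-ND6 is the 1 protein gene read from the other strand of mitochondrial DNA, and its RNA is known to lack a stable poly(A) tail, while the library kit used here captures poly(A) RNA. It had 15 to 43 counts in a library, so its values are imprecise. MT-CO1, MT-CO2 and MT-CO3 together made up 90.2% to 92.7% of the mitochondrial sum in the 12 libraries.

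Nuclear copies of mitochondrial DNA can take reads from these genes. MTCO1P12 had counts equal to 8.24% to 9.82% of those of MT-CO1, MTCO3P12 1.53% to 1.94% of those of MT-CO3 and MTATP6P1 9.61% to 15.2% of those of MT-ATP6. For MT-ND2 the copy MTND2P28 had nearly as many or more counts, 92% to 152%, so the level of MT-ND2 depends on how reads were divided. Neighbours that overlap on the same strand (MT-ND4 with MT-ND4L, MT-ATP6 with MT-ATP8 and MT-CO3) may share reads as well.

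**Figure D4:**
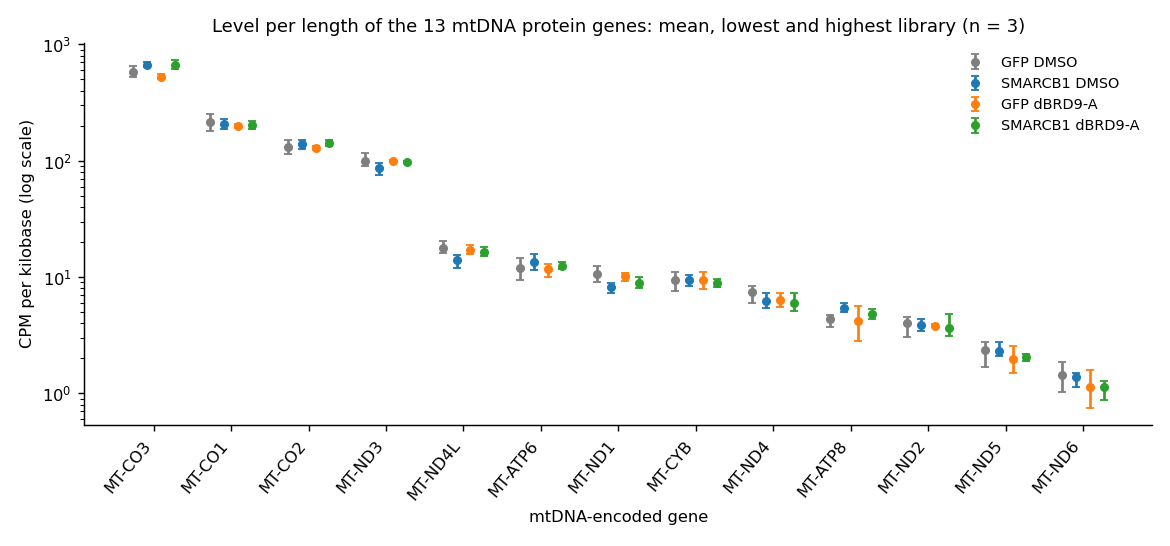
CPM per kilobase of gene length for the 13 mitochondrial protein genes on a log axis, as the mean with the lowest and highest library of each group (n = 3). MT-CO3, MT-CO1, MT-CO2 and MT-ND3 stand above the other 9 genes in all 4 groups, and the groups of 1 gene lie close to each other compared with the differences between genes.

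With SMARCB1 in DMSO the mitochondrial genes did not move as a block relative to the bulk of genes. With spike-in scaling 3 of 13 were called higher and 0 lower, and the log2 fold changes ran from -0.18 to 0.51. MT-CO3 (ENSG00000198938.2) measured 512, 431 and 409 CPM in GFP cells and 525, 498 and 556 CPM in SMARCB1 cells, and the groups overlapped, with the first GFP replicate above the lowest SMARCB1 one. Its log2 fold change was 0.22 (adjusted p 0.0111, SE 0.07), and 0.40 (adjusted p 0.000122) with spike-in scaling. The call was lost without GFP replicate 2 (adjusted p 0.0508), GFP replicate 3 (0.0781) or SMARCB1 replicate 3 (0.0553). MT-ND1, a complex I core subunit, measured 11.9, 9.69 and 8.74 CPM and 8.03, 6.98 and 8.56 CPM with no overlap and had a log2 fold change of -0.36 (adjusted p 0.0091, SE 0.11). MT-ND4L, another complex I subunit, measured 6.09, 4.97 and 4.75 CPM and 4.29, 3.53 and 4.56 CPM and had a log2 fold change of -0.35 (adjusted p 0.0165, SE 0.12). Both lost the call without GFP replicate 1, with a log2 fold change of -0.22 (adjusted p 0.0875) for MT-ND1 and -0.23 (adjusted p 0.125) for MT-ND4L, and without SMARCB1 replicate 2 (adjusted p 0.0539 and 0.0911), and with spike-in scaling they were -0.18 (adjusted p 0.168) and -0.17 (adjusted p 0.267).

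Ratios within the mitochondrial set cancel the level of the whole set in a library. MT-CO3 counts per MT-CO1 count were 1.32, 1.299 and 1.46 in GFP cells and 1.63, 1.72 and 1.59 in SMARCB1 cells in DMSO, and 1.36, 1.32 and 1.35 and 1.71, 1.64 and 1.68 with dBRD9-A. MT-CO3 counts per MT-ND1 count were 43.2, 44.4 and 46.8 and 65.4, 71.4 and 64.9 in DMSO, and 42.8, 44.5 and 40.6 and 71.7, 61.9 and 55.2 with dBRD9-A. Both ratios were higher in all 6 SMARCB1 libraries than in all 6 GFP libraries. They were formed after the values were seen and carry no test. MT-CO1 itself had a log2 fold change of -0.06 (adjusted p 0.587, SE 0.09) with a 95% interval of -0.23 to 0.11 in DMSO, and MT-CO2 one of 0.09 (adjusted p 0.323, SE 0.08) with an interval of -0.06 to 0.24. The other 8 genes, MT-ND2, MT-ND3, MT-ND4, MT-ND5, MT-ND6, MT-CYB, MT-ATP6 and MT-ATP8, had log2 fold changes from -0.24 to 0.34 and adjusted p of 0.0731 or more.

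SMARCB1 was also compared with GFP in cells that received dBRD9-A, in 6 other libraries. Of 93 members 44 were called (47.3%, against 63.3% of all genes tested), 22 higher (background 33%) and 22 lower (background 30.4%) relative to the bulk of genes, and with spike-in scaling 0 higher and 80 lower. Of the members called in DMSO 33 were also called here, all with the same sign, which is 75% of either list. Over all genes tested 8728 were called in both, 8685 of them with the same sign. The 8728 are 85.2% of the DMSO calls and 87.5% of those with dBRD9-A. UQCRC1 measured 189, 194 and 180.5 CPM in GFP cells and 254, 257 and 246 CPM in SMARCB1 cells with dBRD9-A, a log2 fold change of 0.42 (adjusted p 9.31e-09, SE 0.04). UQCRC2 measured 371, 375 and 384 CPM and 283, 263 and 277 CPM, a log2 fold change of -0.46 (adjusted p 6.46e-10, SE 0.03). Neither pair of groups overlapped. On the spike-in scale UQCRC1 was at 0.10 (adjusted p 0.161) and UQCRC2 at -0.79, where the bulk of genes was at -0.32.

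The other leading members kept their side of the bulk of genes with dBRD9-A. NDUFS4 measured 28.7, 29.6 and 29.98 CPM in GFP cells and 41.0, 36.4 and 40.8 CPM in SMARCB1 cells, a log2 fold change of 0.42 (adjusted p 1.46e-06, SE 0.05), and 0.09 on the spike-in scale. COX6B2 measured 2.22, 2.48 and 2.51 CPM and 0.745, 0.733 and 0.698 CPM, a log2 fold change of -1.72 (adjusted p 1.33e-06, SE 0.21). ATP5MC2 measured 198, 199 and 196 CPM and 170.2, 155 and 169.7 CPM, a log2 fold change of -0.26 (adjusted p 1.11e-06, SE 0.03). The groups of these 3 genes did not overlap. NDUFB2, an accessory subunit of the complex I membrane arm, was among the 5 highest nuclear members here, with 67.8, 74.4 and 65.8 CPM and 81.7, 80.4 and 78.8 CPM and a log2 fold change of 0.21 (adjusted p 0.000131, SE 0.04). ATP5F1D measured 32.4, 30.6 and 33.1 CPM and 34.3, 43.7 and 34.7 CPM. Its log2 fold change was 0.24 (adjusted p 0.0105, SE 0.07), and the call was lost without SMARCB1 replicate 2 (0.105, adjusted p 0.0933) or GFP replicate 2 (0.204, adjusted p 0.054). Without SMARCB1 replicate 2, the library that stood apart, NDUFC1, NDUFS7, NDUFB5, ATP5MK, COX8A and ATP5MG also lost their calls. Their adjusted p in edgeR's quasi-likelihood test was then 0.0708 to 0.227, and 60.8% of all genes tested were called.

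Of the mitochondrial genes 1 of 13 was called for SMARCB1 with dBRD9-A (7.69%, against 63.3% of all genes tested), in the higher direction. With spike-in scaling 7 were lower and 0 higher. MT-CO3 measured 434, 392 and 417 CPM in GFP cells and 575, 479 and 525 CPM in SMARCB1 cells, the groups did not overlap, and the log2 fold change was 0.34 (adjusted p 0.000447, SE 0.07), or 0.02 (adjusted p 0.85) on the spike-in scale. MT-ND1 measured 10.1, 8.82 and 10.3 CPM and 8.03, 7.74 and 9.51 CPM with overlap, a log2 fold change of -0.21 (adjusted p 0.112, SE 0.11), and MT-ND4L had a log2 fold change of -0.06 (adjusted p 0.699, SE 0.12). The difference between the SMARCB1 changes with dBRD9-A and in DMSO, tested as an interaction, was 0.12 (adjusted p 0.625) for MT-CO3, 0.14 (adjusted p 0.727) for MT-ND1 and 0.29 (adjusted p 0.433) for MT-ND4L in edgeR's quasi-likelihood test, and -0.38, -0.36 and -0.22 on the spike-in scale, where the bulk of genes was at -0.49.

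dBRD9-A in GFP cells, which lack SMARCB1, gave few and small changes. Of 93 members 8 were called (8.6%, against 15.9% of all genes tested), all of them lower (background 8.47%) and 0 higher (background 7.43%) in edgeR's quasi-likelihood test, where 17 had an unadjusted p under 0.05; DESeq2 called 7, also lower. On the spike-in scale 88 were higher and 0 lower, with the bulk of genes at 0.36. NDUFA7, a complex I accessory subunit, measured 33.4, 32.8 and 33.9 CPM in DMSO and 29.2, 29.4 and 29.5 CPM with dBRD9-A, a log2 fold change of -0.18 (adjusted p 0.0022, SE 0.04). NDUFA5, another accessory subunit of complex I, measured 87.3, 85.8 and 88.0 CPM and 78.7, 79.0 and 78.9 CPM, a log2 fold change of -0.14 (adjusted p 0.0018, SE 0.03). ATP5MG, the g subunit of the complex V membrane part, measured 196, 183 and 204 CPM and 174, 175 and 178 CPM, a log2 fold change of -0.15 (adjusted p 0.00826, SE 0.04). The groups of the 3 genes did not overlap, and the call of ATP5MG was lost without GFP replicate 3 in DMSO (adjusted p 0.0654). NDUFA7 overlaps RPS28 in GENCODE 29, and whether the counting used strand is not given in the sources used here. NDUFB9, NDUFV3, SDHA, ATP5PD and NDUFS1 had log2 fold changes from -0.11 to -0.08 with adjusted p of 0.0306 to 0.0474, and each of these 5 lost its call in 4 to 9 of 12 fits that left out a library.

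None of the 13 mitochondrial genes passed the threshold for dBRD9-A in GFP cells, in edgeR with 0 at an unadjusted p under 0.05, and in DESeq2 with 0 calls; without the filter on low counts edgeR called 2 of them lower, MT-CO1 and MT-CO3, and with spike-in scaling 8 were called higher and 0 lower. MT-CO1 measured 389.5, 332 and 280.4 CPM in DMSO and 319, 297 and 309 CPM with dBRD9-A, and the groups overlapped. Log2 fold changes of the 13 genes ran from -0.29 (MT-ND6) to 0.01 (MT-ND3).

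dBRD9-A in SMARCB1 cells changed 1 of 93 members in edgeR's quasi-likelihood test (1.08%, against 1.93% of all genes tested), in the higher direction (background 0.679%, and 1.25% lower). ATP5MC2 measured 148, 149 and 149 CPM in DMSO and 170.2, 155 and 169.7 CPM with dBRD9-A, with no overlap and a log2 fold change of 0.15 (adjusted p 0.0173, SE 0.03), or 0.01 (adjusted p 0.89) on the spike-in scale, where the bulk of genes was at -0.14. The call was lost without any 1 of the SMARCB1 libraries in DMSO, or without replicate 1 or 3 of those with dBRD9-A (adjusted p 0.0604 to 0.12). Without replicate 2 with dBRD9-A, the library that stood apart, 2 members were called, ATP5MC2 at 0.19 (adjusted p 0.000332) and NDUFA9, another accessory subunit of complex I, at 0.10 (adjusted p 0.0469), against 2.64% of all genes tested. No mitochondrial gene was called in the fit of all libraries, with 0 at an unadjusted p under 0.05 in edgeR and 0 calls in DESeq2, and their log2 fold changes ran from -0.28 (MT-ND6) to 0.23 (MT-ND4L).

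The dBRD9-A changes in the 2 cell states were compared directly as an interaction. It was called for 2 of 93 members (2.15%, against 3.8% of all genes tested), both in the higher direction (background 2.15%, and 1.65% lower), NDUFA5 and NDUFA7. Beside its GFP values above, NDUFA5 measured 85.2, 82.0 and 85.2 CPM in SMARCB1 cells in DMSO and 87.9, 84.1 and 86.7 CPM in the same cells with dBRD9-A. The GFP libraries with dBRD9-A were the lowest 3 of the 12. The log2 fold change in SMARCB1 cells minus that in GFP cells was 0.18 (adjusted p 0.0149, SE 0.04). NDUFA7 measured 31.8, 29.6 and 31.2 CPM in SMARCB1 cells in DMSO and 31.3, 31.3 and 30.8 CPM with dBRD9-A, and its difference was 0.20 (adjusted p 0.0448, SE 0.05). Leaving out a library ended the call of NDUFA5 in 3 and that of NDUFA7 in 11 of 12 fits, and on the spike-in scale, where the bulk of genes was at -0.49, both values turned negative (-0.32 and -0.30). Without the SMARCB1 library that stood apart the interaction was called for 3 members, NDUFA5, NDUFA9 (0.14, adjusted p 0.0309) and ATP5MC2 (0.14, adjusted p 0.0261), against 5.38% of all genes tested, and NDUFA7 was not called (adjusted p 0.0611).

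Genes that build and serve the complexes were followed as lists beside the subunits. With SMARCB1 in DMSO, 32 of 51 assembly factors tested were lower and 7 higher relative to the bulk of genes (13 and 10 with spike-in scaling), with a median log2 fold change of -0.16 against -0.005 over all genes tested. The furthest was COA7, an assembly factor of complex IV, at 41.4 ± 1.84 CPM in GFP cells and 17.9 ± 0.418 CPM in SMARCB1 cells (SD, n = 3), which is a log2 fold change of -1.22 (adjusted p 1.03e-13, SE 0.04), and -1.04 with spike-in scaling. Of 22 factors of mitochondrial RNA processing and stability 17 were lower and 3 higher (7 and 3 with spike-in scaling), with a median of -0.25. Among them were PTCD2, which acts in the processing of the MT-CYB RNA, at -0.59 (adjusted p 8.89e-09, SE 0.05), and LRPPRC, which stabilises mitochondrial messenger RNAs, at -0.55 (adjusted p 7.33e-12, SE 0.03). Of 76 mitochondrial ribosomal protein genes 44 were lower and 10 higher (14 and 20 with spike-in scaling), with a median of -0.15 and MRPL36 furthest at -0.57 (adjusted p 1.01e-09, SE 0.04). The share called was 76.5%, 90.9% and 71.1% of these lists, in the order given, and 65% of all genes tested. Of all genes tested 31.6% were lower and 33.5% higher. The nuclear subunits, with 31 of 80 lower and a median of -0.02, are given beside these lists without a test of the difference.

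Of 22 genes of mitochondrial DNA transcription and maintenance 11 were lower and 3 higher (5 and 5 with spike-in scaling), with a median of -0.13. TWNK, the mitochondrial DNA helicase, was furthest, at 41.7 ± 1.33 CPM in GFP cells and 21.0 ± 2.44 CPM in SMARCB1 cells (SD, n = 3), which is a log2 fold change of -0.99 (adjusted p 6.64e-11, SE 0.06). Of 16 genes of cytochrome c and ubiquinone, among them the member CYC1, 7 were lower and 3 higher (2 and 8 with spike-in scaling). PDSS1, a subunit of the enzyme that makes the ubiquinone side chain, was furthest at -0.98 (adjusted p 3.36e-12, SE 0.05). Of 23 genes of pyruvate dehydrogenase and the citric acid cycle 7 were lower and 8 higher (2 and 12 with spike-in scaling). PDP1, a phosphatase that activates pyruvate dehydrogenase, had the largest rise, from 1.52 ± 0.153 CPM to 27.5 ± 0.263 CPM (SD, n = 3), which is a log2 fold change of 4.16 (adjusted p 2.63e-17, SE 0.09). Of 17 nuclear regulators tested 8 were lower and 5 higher (2 and 8 with spike-in scaling). MYC was lower, at -1.56 (adjusted p 1.21e-16, SE 0.04). Of the factors whose letters were searched in the promoters NRF1 was at -0.10 (adjusted p 0.156, SE 0.06), GABPA was lower at -0.15 (adjusted p 0.00709, SE 0.04) and YY1 was lower at -0.20 (adjusted p 2.1e-06, SE 0.03). With spike-in scaling they were at 0.08, 0.02 and -0.03. The share called was 63.6%, 62.5%, 65.2% and 76.5% of the lists in this paragraph, in the order given. For all genes tested it was 65%, with 31.6% lower and 33.5% higher.

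**Figure D5:**
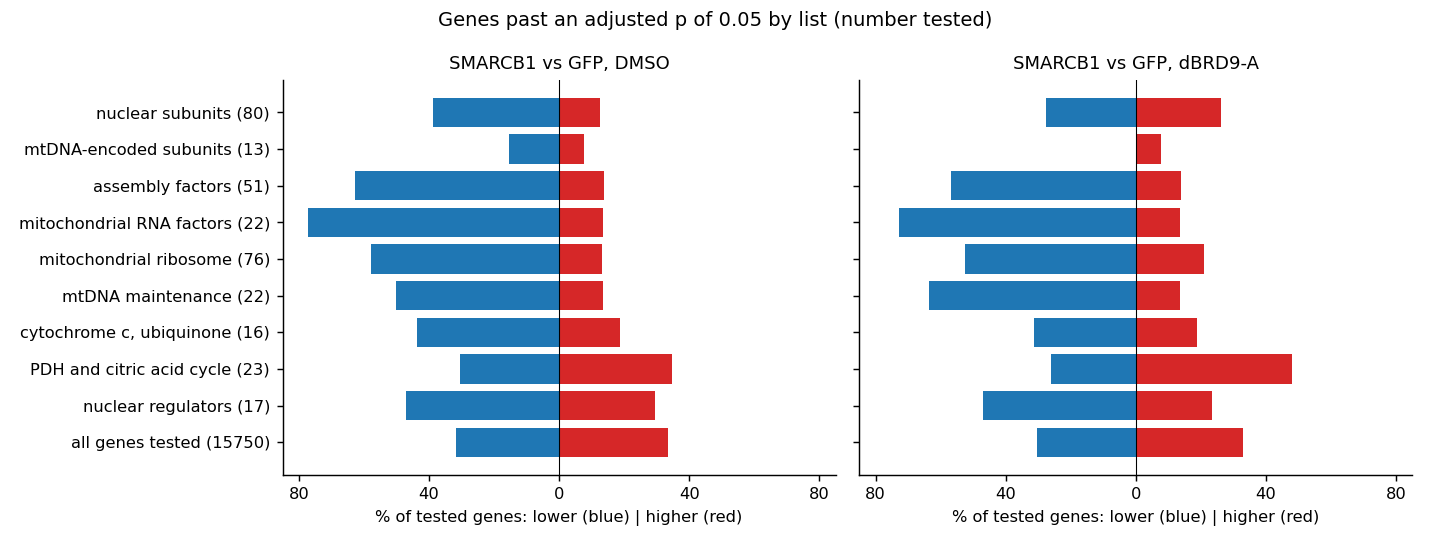
Percentage of tested genes past an adjusted p of 0.05 with SMARCB1, lower to the left and higher to the right, for the nuclear and mitochondrial subunits, the lists of genes that serve them and all genes tested, in DMSO and with dBRD9-A. The lists for assembly factors, mitochondrial RNA factors, mitochondrial ribosome and mitochondrial DNA maintenance have more lower than higher calls in both panels relative to the bulk of genes; with spike-in scaling the lower and higher calls in DMSO were 13 and 10, 7 and 3, 14 and 20, and 5 and 5.

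With dBRD9-A the same comparison of SMARCB1 and GFP gave 29 lower and 7 higher of 51 assembly factors, 16 lower and 3 higher of 22 mitochondrial RNA factors, and 40 lower and 16 higher of 76 mitochondrial ribosomal protein genes (46 and 0, 19 and 0, and 67 and 0 with spike-in scaling). The share called was 70.6%, 86.4% and 73.7% of these lists and 63.3% of all genes tested, of which 30.4% were lower and 33% higher. COA7 was at -1.19 (adjusted p 2.24e-13, SE 0.05), TWNK at -1.02 (adjusted p 6.3e-11, SE 0.06) and LRPPRC at -0.57 (adjusted p 5.05e-12, SE 0.03). For dBRD9-A in GFP cells 6 of 51 assembly factors were lower and 2 higher (15.7% called, against 15.9% of all genes tested, and 50 higher and 0 lower with spike-in scaling). The furthest was ATPAF2, an assembly factor of the complex V head, which averaged 32.6 ± 0.878 CPM (SD, n = 3) in DMSO and 26.1 ± 0.393 CPM with the degrader, a log2 fold change of -0.32 (adjusted p 2.82e-05, SE 0.04), or 0.04 with spike-in scaling. Its dBRD9-A change differed between the cell states, with an interaction of 0.36 (adjusted p 0.00188, SE 0.06), which turned to -0.14 with spike-in scaling, where the bulk of genes was at -0.49. TK2, the thymidine kinase that supplies mitochondrial DNA synthesis, was lower with dBRD9-A in both states, with GFP at -0.39 (adjusted p 0.00156, SE 0.07) and with SMARCB1 at -0.39 (adjusted p 0.00639, SE 0.07), and -0.03 and -0.53 with spike-in scaling. MTERF2, a factor of the mitochondrial transcription termination family, was higher with dBRD9-A in GFP cells, at 0.37 (adjusted p 0.000409, SE 0.06), with an interaction of -0.39 (adjusted p 0.0136, SE 0.09), and at 0.73 and -0.89 with spike-in scaling. The furthest called genes of other lists in GFP cells were MRPS6, a protein of the small mitochondrial ribosomal subunit, at -0.40 (adjusted p 6.9e-06, SE 0.05), FASTK, whose mitochondrial form stabilises the MT-ND6 RNA, at 0.27 (adjusted p 0.000913, SE 0.05), FLCN, a regulator upstream of PGC-1alpha, at 0.25 (adjusted p 0.000111, SE 0.04), PDSS1, described above, at -0.22 (adjusted p 0.0021, SE 0.04), and DLST, a subunit of the oxoglutarate dehydrogenase of the citric acid cycle, at -0.19 (adjusted p 0.000103, SE 0.03). In SMARCB1 cells MRPL54, of the large mitochondrial ribosomal subunit, was higher at 0.23 (adjusted p 0.014, SE 0.05) and NRIP1, a corepressor of oxidative genes, lower at -0.15 (adjusted p 0.015, SE 0.03). The call of MRPL54 was lost without replicate 3 of either group (adjusted p 0.108 and 0.0705), and that of NRIP1 without replicate 2 or 3 in DMSO (adjusted p 0.0579 and 0.0875). On the spike-in scale MRPS6 was at -0.04, FASTK at 0.62, FLCN at 0.61, PDSS1 at 0.14, DLST at 0.17, MRPL54 at 0.10 and NRIP1 at -0.28 in these comparisons.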

How the data were processed

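Poly(A)-selected, strand-marking RNA libraries of 12 samples were analysed, 3 in each of 4 groups taken from the labels. The values are expected counts per gene deposited by the authors in 3 tables, made with STAR, RSEM 1.3.1 and the build GRCh37 (hg19) per the submitters' processing notes, which also name DESeq2. The annotation release, and whether strand was used in counting, are not given in the sources used here. RSEM divides reads that fit several genes, so values of genes with pseudogenes or overlapping neighbours depend on that division. Columns repeated between tables (6) were identical. Identifiers matched a symbol for 51996 of 57820 genes and a GENCODE 29 type for 52338.

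Counts were rounded, 40 ERCC spike-in identifiers (0.9634% to 1.302% of counts) entered neither library sizes nor tests, and genes passing filterByExpr (minimum count 10) were kept, 15750 in all. Library totals were 34.97 to 58.54 megacounts. The 7 members that did not pass were described by their counts. edgeR 4.0.16 (R 4.3.3) fitted 1 coefficient per group to all 12 libraries with TMM scaling and quasi-likelihood tests, with Benjamini-Hochberg adjustment over all genes and a threshold of 0.05. Sums and ratios used Python 3.11.15. The procedure was also run on simulated counts with the same dispersion for every gene and no library that stood apart. That run is therefore no check of the calls made on these libraries. A count of 0 was read against a floor of 3 counts.

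Members named are the 13 mitochondrial genes, the 5 largest called rises and falls of nuclear members per comparison with a mean of at least 50 counts, alternative isoforms with their partners, catalytic subunits and the furthest called gene per list. Other genes were named after their values were seen: ATP5F1C, ATP5MC3, ATP5MGL, ATP5MK, ATP5PD, COX7C, NDUFA6, NDUFA8, NDUFA9, NDUFB4, NDUFB5, NDUFC1, NDUFS3, NDUFS8, NDUFV2, SDHD, UQCRHL, NRF1, GABPA and YY1. The members and lists were chosen with earlier results of these data known. Alternatives were other size factors, spike-in scaling, DESeq2 1.42.0, no filter, only the groups compared, a replicate block, library sizes without mitochondrial genes and leaving out each library. Promoter sequences are from RefSeq (GRCh38.p14) and were used only for their letters.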

Additional observations from a re-analysis of the deposited data

Results flagged for a closer look

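The response to dBRD9-A differed between the cell states for 2 members by the test of the difference itself. For NDUFA5 the log2 fold change in SMARCB1 cells exceeded that in GFP cells by 0.18 (SE 0.04, adjusted p 0.0149, edgeR's quasi-likelihood test). For NDUFA7 the difference was 0.20 (SE 0.05, adjusted p 0.0448). Each value is a difference of changes over 3 libraries a group. The 2 members are 2.15% of the 93 tested, against 3.8% of all genes tested. Leaving out a library ended the call of NDUFA5 in 3 and that of NDUFA7 in 11 of 12 fits, DESeq2 called 1 member, and with spike-in scaling both differences were negative (-0.32 and -0.30).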

How the results depend on the processing

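Spike-in scaling moved the most values. It gave 88 calls for dBRD9-A in GFP cells, 80 for SMARCB1 with dBRD9-A and 88 for the interaction. For SMARCB1 in DMSO, calls among the 93 members went from 11 higher and 33 lower to 42 higher and 3 lower. The reversals listed here are only those of called members named by rule. Others also changed sign, such as SDHD for SMARCB1 in DMSO and ATP5PD for dBRD9-A in GFP cells. Spike-in scaling reversed the log2 values of COX7A2 (0.05), NDUFA4 (0.01) and NDUFV1 (0.03) for SMARCB1 in DMSO. For SMARCB1 with dBRD9-A it reversed ATP5F1B (-0.24), ATP5F1D (-0.10), COX6A1 (-0.23), COX8A (-0.23), NDUFB2 (-0.11), NDUFS7 (-0.14), SDHA (-0.24) and UQCRFS1 (-0.18). For dBRD9-A in GFP cells it reversed ATP5MG (0.21), NDUFA5 (0.22), NDUFA7 (0.18), NDUFB9 (0.25), NDUFS1 (0.28), NDUFV3 (0.26) and SDHA (0.27), and in the interaction NDUFA5 (-0.32) and NDUFA7 (-0.30). Per spike-in count the log2 ratio of the nuclear sum was 0.11 for SMARCB1 in DMSO, 0.33 for dBRD9-A in GFP cells, -0.12 for dBRD9-A in SMARCB1 cells and -0.35 for SMARCB1 with dBRD9-A, and that of the mitochondrial sum 0.26, 0.26, -0.14 and -0.14. Relative to gene counts without mitochondrial genes the nuclear sum for SMARCB1 with dBRD9-A was -0.05. Fitting only the groups compared left 0 calls for dBRD9-A in SMARCB1 cells, and DESeq2 size factors and the DESeq2 test each left 1 call in the interaction. Leaving out 1 library gave 39 to 48 calls for SMARCB1 in DMSO, 36 to 44 with dBRD9-A, 3 to 10 for dBRD9-A in GFP cells, 0 to 2 in SMARCB1 cells and 0 to 3 in the interaction. The cause was not tested for any of these. Replicate numbers did not pair the libraries: deviations of same-numbered libraries correlated at -0.184 to 0.14. With a replicate block there were 43 calls for SMARCB1 in DMSO, 44 with dBRD9-A, 4 for dBRD9-A in GFP cells, 1 in SMARCB1 cells and 1 in the interaction.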

Other observations

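The ribosomal RNAs of mitochondrial DNA, which lie upstream of the protein genes, were measured beside them. MT-RNR1, the small ribosomal RNA, had 5.79, 17.3 and 5.22 CPM in GFP cells in DMSO and 4.08, 3.88 and 5.74 CPM in SMARCB1 cells in DMSO. The second GFP replicate stands apart from the other 11 libraries, and the groups overlap. The log2 change was -0.97 (adjusted p 0.0177, edgeR's quasi-likelihood test), and -0.24 (adjusted p 0.226) without that library; the call was also lost without SMARCB1 replicate 1 (adjusted p 0.0537) or 2 (0.0646). MT-RNR2, the large ribosomal RNA, had 54.1, 45.0 and 67.7 CPM in SMARCB1 cells in DMSO and 73.5, 99.6 and 89.7 CPM with dBRD9-A, with no overlap. Its log2 change was 0.65 (adjusted p 0.0248), and 0.50 with spike-in scaling. The call was lost without replicate 1 or 2 in DMSO or replicate 2 or 3 with dBRD9-A (adjusted p 0.0724 to 0.139). The libraries were made from poly(A) RNA, and the part of poly(A) selection in these values was not tested.

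MTCO3P12, a nuclear copy of MT-CO3, was compared under dBRD9-A, where GFP cells had 8.44, 6.06 and 6.63 CPM and SMARCB1 cells 9.64, 7.87 and 9.88 CPM. Its log2 change was 0.36 (adjusted p 0.0146), with overlapping groups, beside 0.34 for MT-CO3, and 0.04 and 0.02 with spike-in scaling. Leaving out GFP replicate 2 or 3 or SMARCB1 replicate 1 or 3 ended its call (adjusted p 0.0513 to 0.0921). Whether its reads come from MT-CO3 was not tested.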
